A study of Mus musculus with 22 samples.

Results

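The Lsm ring subunit genes encode small proteins that share the Sm-like fold and close into rings around short stretches of RNA. Their members were taken by name, as the rows of the deposited expression table for Lsm1, Lsm2, Lsm3, Lsm4, Lsm5, Lsm6, Lsm7, Lsm10 and Lsm11, and all 9 were found among its 22330 genes. Lsm1 is the subunit that defines the cytoplasmic ring, Lsm2 to Lsm7 are shared between the cytoplasmic and the nuclear ring, and Lsm10 and Lsm11 belong to the U7 small nuclear ribonucleoprotein. Lsm8, which takes the place of Lsm1 in the nuclear ring, was not a member and is given as a neighbour gene.

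The cytoplasmic ring binds the 3′ ends of deadenylated messenger RNAs and, with Patl1, promotes removal of their cap. The nuclear ring binds the uridine-rich 3′ end of U6 small nuclear RNA, which it protects and helps to assemble with U4 for splicing. Lsm10 and Lsm11 replace a pair of Sm proteins in U7, the particle that directs cleavage of histone pre-messenger RNAs at their 3′ ends.

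The cells were mouse embryonic stem cells kept in serum with LIF, the MEK inhibitor PD0325901 and the GSK3 inhibitor CHIR99021. One experiment sequenced poly(A)-selected RNA from NF45 WT and NF45 KO cells (n = 2 libraries each). NF45 is the product of Ilf2 and pairs with NF90 and NF110, which bind double-stranded RNA. The other was RIP-seq, in which an anti-NF90/NF110 antibody pulls down the proteins with their RNA, on cells that were NF90+NF110 KO, NF110 KO or NF90/NF110 WT, with an input and an immunoprecipitate (IP) from each of 3 experiments per genotype, after depletion of ribosomal RNA. The study text calls the replicates biological without saying whether they are separate clones, so p-values measure the spread between these libraries. NF45 WT libraries carry the name Rev in the tables, whose meaning is not given there.

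Ilf2 RNA was lower in NF45 KO by 5.88 on the log2 scale (SE 0.091, limma adjusted p = 0.000581), as its label says. The RIP-seq genotypes are given as labelled. All 8 stem cell markers listed (among them Pou5f1, Nanog and Sox2) reached an FPKM of 1, with summed FPKM from 3963 to 5287 over all libraries, and the summed fibroblast markers stayed between 0.896 and 6.81. Assigned reads, in mega-reads (M), ranged from 49.1 M to 68.8 M in the NF45 libraries, whereas the inputs had 9.5 M to 11.9 M and the IPs 14.1 M to 19.0 M.

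On GRCm38.p6, 5 of the 9 genes lie on chromosomes 6 and 8. Lsm3 (chr6:91516035-91522620) and Lsm5 (chr6:56701063-56704699) are on chromosome 6, and Lsm1 (chr8:25785318-25803975), Lsm4 (chr8:70673231-70678752) and Lsm6 (chr8:78804868-78821152) on chromosome 8. Lsm2 is at chr17:34981854-34985891, Lsm7 at chr10:80852825-80855209, Lsm10 at chr4:126096562-126098584 and Lsm11 at chr11:45928266-45944996. Lsm1 overlaps the pseudogene Gm46037 in the annotation, so its reads may be shared, and no other member overlaps an annotated gene.

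The 120 bases before the RefSeq start of Lsm3, Lsm5 and Lsm6 are shown because these are the genes of chromosomes 6 and 8, which fell together in NF45 KO cells, that have a promoter entry. Lsm1 and Lsm4 are named only. Capitals mark a GC box (GGGCGG) or a CCAAT box (CCAAT) on either strand.
Lsm3, chr6:91515915-91516034, plus strand: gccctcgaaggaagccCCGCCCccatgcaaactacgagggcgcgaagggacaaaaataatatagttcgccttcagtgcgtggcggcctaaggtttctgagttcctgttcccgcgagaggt
Lsm5, chr6:56704700-56704819, minus strand: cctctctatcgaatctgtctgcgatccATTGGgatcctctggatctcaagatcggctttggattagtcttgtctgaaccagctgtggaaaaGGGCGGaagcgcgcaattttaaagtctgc
Lsm6, chr8:78821153-78821272, minus strand: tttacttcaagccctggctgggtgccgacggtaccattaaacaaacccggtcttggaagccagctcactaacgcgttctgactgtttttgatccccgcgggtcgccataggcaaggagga
The Lsm3 stretch holds a GC box, the Lsm5 stretch holds both motifs and the Lsm6 stretch holds neither. Over the 250 bases before the start, a GC box was found in 5 of 7 Lsm promoters (Lsm2, Lsm3, Lsm5, Lsm7 and Lsm11), against 35.4% of the promoters of 27025 genes. A CCAAT box was found in 3 of 7 (Lsm2, Lsm5 and Lsm10) against 37.5%, and TATAAA in 0 of 7 against 14.3%. Neither motif was in all 3 stretches shown.

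The 9 genes spanned a wide range of levels. FPKM, which scales fragments to transcript length and library size, can be compared between genes. Lsm3 was the most abundant in the poly(A) libraries, with a mean of 462 in NF45 WT, and lay at the 99.2 percentile of the 11248 genes at FPKM of 1 or more there. It was followed by Lsm4 (150.2), Lsm2 (113), Lsm5 (54.9), Lsm10 (29.8), Lsm1 (24.6), Lsm6 (14.0), Lsm7 (10.0) and Lsm11 (3.38), and no neighbours in this order overlapped between libraries. In all 6 RIP-seq groups Lsm4 came first, with means from 279 to 360.1, and Lsm3 second, with means from 150.6 to 224. Lsm4 and Lsm3 overlapped between libraries in the WT inputs and in no other RIP-seq group. Below Lsm2, the order of Lsm1, Lsm5, Lsm6 and Lsm7 was often unresolved. In the WT inputs Lsm7 overlapped Lsm6, and in the WT IPs Lsm5, Lsm1, Lsm7 and Lsm6 each overlapped the next. Lsm11, a subunit found in U7, was lowest in all 8 groups, with means from 2.71 to 3.74. The poly(A) and the ribosomal-depletion libraries were made with different kits, and the change of order between them was not tested.

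**Figure D1:**
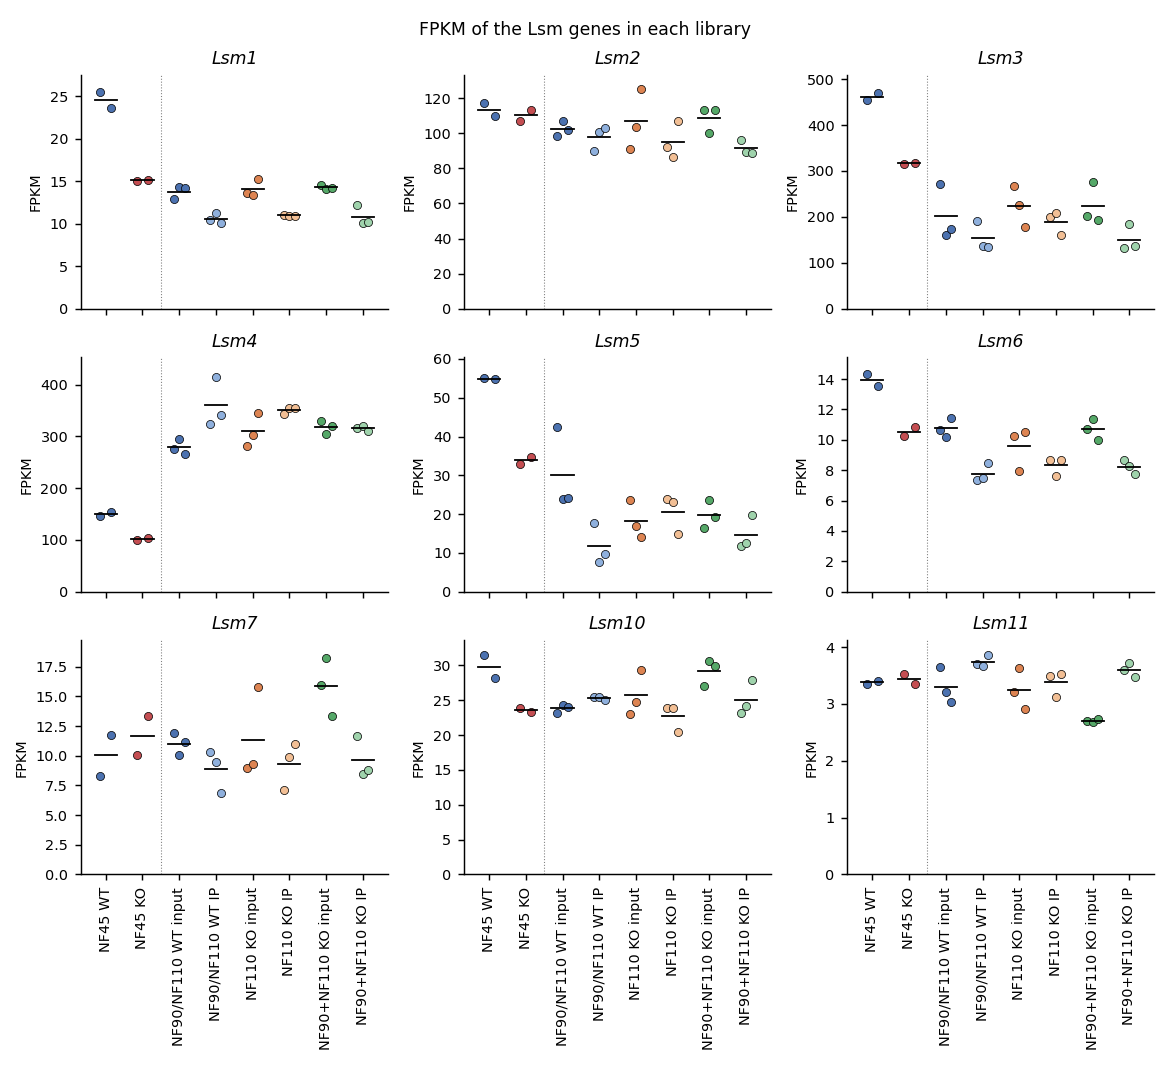
FPKM (y axis, from 0) of each Lsm gene in each of the 22 libraries, by group (x axis), with a bar at the group mean. Lsm1, Lsm3, Lsm4, Lsm5, Lsm6 and Lsm10 are lower in both NF45 KO libraries than in both NF45 WT libraries, and Lsm5 drops from input to IP in NF90/NF110 WT. The share of all genes that separate in this way was not counted.

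Loss of NF45 was compared with NF45 WT in the poly(A) libraries. Of the 9 Lsm genes, 6 were lower in NF45 KO cells: Lsm1 of the cytoplasmic ring, the shared subunits Lsm3, Lsm4, Lsm5 and Lsm6, and the U7 subunit Lsm10. None was higher. Lsm2, Lsm7 and Lsm11 did not pass the test. The 5 genes on chromosomes 6 and 8 fell together with most other genes of those chromosomes.

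Lsm1 had FPKM of 25.5 and 23.7 in NF45 WT and 15.1 and 15.2 in NF45 KO. The libraries of the genotypes did not overlap, and the log2 change was -0.66 (SE 0.068, limma adjusted p = 0.00773). Lsm1 is needed for the ring to act in the cytoplasm. Among the shared subunits, Lsm5 had FPKM of 55.2 and 54.7 in NF45 WT and 33.0 and 34.7 in NF45 KO, a log2 change of -0.68 (SE 0.059, adjusted p = 0.00693). Lsm3 had 454 and 469 in NF45 WT and 316 and 317 in NF45 KO, a log2 change of -0.54 (SE 0.052, adjusted p = 0.00757). Both genes were separated by far more than the gap within a genotype. Lsm4 had 147 and 153 in NF45 WT and 99.6 and 103.6 in NF45 KO, a log2 change of -0.56 (SE 0.059, adjusted p = 0.00783). Lsm6 had 14.3 and 13.6 in NF45 WT and 10.2 and 10.9 in NF45 KO, a log2 change of -0.37 (SE 0.075, adjusted p = 0.0273). Lsm4 and Lsm6 did not overlap between the genotypes either. The share of all genes that separate in this way, with 2 libraries per genotype, was not counted.

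Lsm2, the shared subunit on chromosome 17, had FPKM of 117 and 109.5 in NF45 WT and 107 and 113 in NF45 KO, a log2 difference of -0.04 (95% interval -0.22 to 0.14). Lsm7, on chromosome 10, had 8.29 and 11.8 in NF45 WT and 10.1 and 13.3 in NF45 KO, a log2 difference of 0.21 (95% interval -0.35 to 0.76). Both overlapped between genotypes, and the interval of Lsm7, which had 125 to 244 reads per library, covers falls as well as rises. Of the U7 subunits, Lsm10 had FPKM of 31.5 and 28.1 in NF45 WT and 23.9 and 23.3 in NF45 KO, a log2 change of -0.32 (SE 0.076, adjusted p = 0.0407). Lsm11 had 3.35 and 3.40 in NF45 WT and 3.53 and 3.36 in NF45 KO, a log2 difference of 0.02 (95% interval -0.21 to 0.25). Lsm10 did not overlap between genotypes, and Lsm11 did.

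The 6 genes called stand against 27.6% of the 11481 genes tested, 16.0% lower and 11.7% higher (1833 and 1338 genes). That split was 1455 lower and 1663 higher when libraries were centred on their median, and 1543 lower and 1698 higher when each chromosome was centred on its own. The median log2 difference was -0.37 over the 9 Lsm genes and -0.03 over all genes. In bulk RNA, fewer cells of a type and less RNA per cell cannot be told apart. In the authors' deposited table, 5 of the 9 genes were lower at an adjusted p under 0.05 (Lsm1, Lsm3, Lsm4, Lsm5 and Lsm6) and 0 were higher.

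For the 5 Lsm genes on chromosomes 6 and 8, the median gene of the chromosome was lower as well. For Lsm10 it was not, with a chromosome 4 median of -0.00. The median log2 difference in NF45 KO was -0.48 over 542 genes of chromosome 6 and -0.50 over 629 of chromosome 8, while all other chromosomes together had a median of -0.00. Lower calls made up 62.0% of the chromosome 6 genes and 66.8% of the chromosome 8 genes, against 10.5% elsewhere. Per library, the chromosome 6 median stood at 0.27 and 0.24 in NF45 WT and at -0.25 and -0.24 in NF45 KO. Of 4 further Lsm-domain genes, 1 changed, Lsm8, also on chromosome 6, which fell by 0.73 (SE 0.071, adjusted p = 0.00757). When each chromosome was centred on its own level, Lsm1 stood at -0.17 (adjusted p = 0.0987), Lsm3 at -0.04 (0.577), Lsm4 at -0.06 (0.457) and Lsm5 at -0.19 (0.0635). Lsm6 turned to 0.12 (adjusted p = 0.242). Lsm10, on chromosome 4, kept its call at -0.32 (adjusted p = 0.0256) and was then the only 1 of the 9 genes called. Whether the lower level of chromosomes 6 and 8 reflects fewer copies in the NF45 KO cells was not tested.

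**Figure D2:**
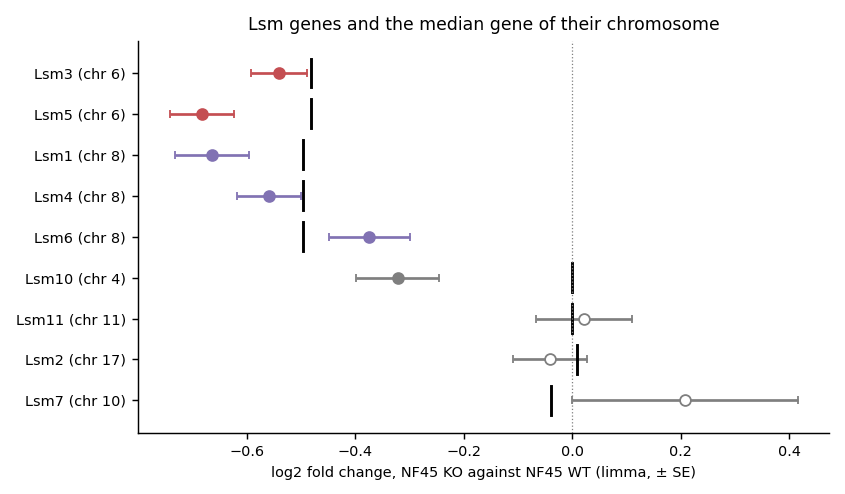
Log2 fold change of each Lsm gene in NF45 KO against NF45 WT (x axis; points with SE, filled where the adjusted p is under 0.05) and the median of all tested genes on its chromosome (black bars). The 5 genes of chromosomes 8 and 6 lie between -0.68 and -0.37, around their medians of -0.50 and -0.48, and Lsm10 lies at -0.32 with the chromosome 4 median at -0.00.

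Leaving out either NF45 KO library left 0 of 9 genes called (limma; 1 and 0 genes in the whole table), and leaving out either NF45 WT library left 6, while the calls in the whole table rose from 3171 to 6184 and 5366. The call of Lsm10 did not hold with edgeR (log2 change -0.29, adjusted p = 0.0967) or with quantile scaling (-0.26, adjusted p = 0.0689), nor with DESeq2, with no filter or with median centring. The summed FPKM of 4 neural markers was 48.3 to 56.9 in NF45 WT and 17.9 to 18.4 in NF45 KO, and its part in these results was not tested.

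The related lists are given beside the 16.0% of all genes that were lower and the 11.7% that were higher. Of 8 Sm core genes, which encode the related ring of the other spliceosomal particles, 1 fell, Snrpg on chromosome 6 (-0.54, adjusted p = 0.00757). Of 8 decapping and decay genes, 1 rose, the decapping enzyme Dcp2 (0.47, adjusted p = 0.0458). Of 9 genes listed for U6, U4/U6 and the tri-snRNP they join, 1 fell, the U6 exonuclease Usb1 on chromosome 8 (-0.50, adjusted p = 0.0425). These 9 are called U6 and U4/U6 genes below. Of 6 genes of histone 3′ end processing tested, 2 fell, the histone stem-loop binding protein Slbp (-0.54, adjusted p = 0.0144) and Casp8ap2 (-0.32, adjusted p = 0.0334), which binds Lsm11 in the U7 machinery and lies on chromosome 4 like Lsm10. The list medians were -0.08, 0.01, 0.03 and -0.23 in that order, beside -0.03 over all genes.

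Loss of NF110, or of NF90 and NF110, was compared with NF90/NF110 WT in the 9 input libraries, which share their controls. No Lsm gene was called in any of the 3 comparisons. Lsm5 was 0.68 lower on the log2 scale in NF110 KO inputs and 0.55 lower in NF90+NF110 KO inputs, and Lsm7 and Lsm10 had their highest means in NF90+NF110 KO, but none of these passed. Lsm3 varied between libraries of the same genotype, along with the median level of chromosome 6 genes. Smaller shifts in the other direction, in the same libraries, were seen for Lsm1 on chromosome 8.

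The count was 0 of 9 with limma in NF110 KO, in NF90+NF110 KO and between them, where 0.00788%, 0.205% and 0.0473% of 12693 genes were called. At an unadjusted p under 0.05 it was 1, 2 and 1 genes in that order, among 2055, 1888 and 1329 genes of the whole table. Neither edgeR nor DESeq2 called a member, although DESeq2 gave Lsm5 and Lsm7 no adjusted p in the comparison of NF110 KO with WT. No member passed in the same comparisons of the authors' deposited table, and Lsm7 has no adjusted p there between NF110 KO and WT inputs. The median log2 difference over the 9 genes was 0.03, 0.09 and 0.04, beside 0.01, -0.01 and -0.01 over all genes. The 26 genes called between NF90+NF110 KO and WT inputs were 11 higher (0.0867%) and 15 lower (0.118%), while 0.0394% were lower between the knockouts, and with median centring the first pair became 16 higher and 14 lower. No Sm core, further Lsm-domain, decapping, U6 or histone 3′ end gene of the lists was called either.

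Lsm1 ranged from 12.9 to 15.2 FPKM over the 9 inputs, Lsm2 from 91.2 to 125, Lsm4 from 267 to 345 and Lsm6 from 7.96 to 11.5. Each of these overlapped between all genotypes except Lsm4, whose NF90+NF110 KO inputs (330.1, 305 and 321) all lay above the WT inputs (276, 295 and 267). The log2 difference of Lsm4 was 0.19 (95% interval -0.01 to 0.40, adjusted p = 0.365). Lsm7 had FPKM of 11.9, 10.1 and 11.1 in WT inputs, 9.01, 9.27 and 15.8 in NF110 KO inputs and 16.0, 18.2 and 13.3 in NF90+NF110 KO inputs. The NF90+NF110 KO inputs all lay above WT, and 1 NF110 KO input was as high. The log2 difference from WT was 0.48 (95% interval 0.04 to 0.92, adjusted p = 0.3), from 25 to 59 reads per input. Lsm10 had FPKM of 23.1, 24.2 and 24.0 in WT inputs and 27.1, 30.6 and 29.8 in NF90+NF110 KO inputs, a log2 difference of 0.28 (95% interval 0.07 to 0.49, adjusted p = 0.217). Lsm11 had 3.66, 3.22 and 3.03 in WT inputs and 2.70, 2.68 and 2.74 in NF90+NF110 KO inputs, a log2 difference of -0.21 (95% interval -0.46 to 0.03, adjusted p = 0.399). For both U7 subunits the NF90+NF110 KO inputs did not overlap the WT inputs, above WT for Lsm10 and below for Lsm11, but neither passed. NF110 KO inputs had 23.1, 24.7 and 29.3 for Lsm10, which overlapped both other genotypes. For Lsm11 they had 3.21, 3.63 and 2.92, which overlapped WT. How many of all genes separate in this way was not counted.

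Lsm5 had FPKM of 42.3, 23.8 and 24.2 in WT inputs, 23.7, 16.8 and 14.1 in NF110 KO inputs and 16.3, 23.6 and 19.3 in NF90+NF110 KO inputs. Every knockout input lay below every WT input, although the nearest values, 23.7 and 23.8, almost touched, and the log2 differences were -0.68 (SE 0.249, adjusted p = 0.239) in NF110 KO and -0.55 (SE 0.249, adjusted p = 0.345) in NF90+NF110 KO. Lsm3 had 272, 161 and 174.5 in WT inputs, 268, 225 and 178 in NF110 KO inputs and 202, 276 and 193 in NF90+NF110 KO inputs. Here the genotypes overlapped, with a high library in each.

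The inputs fell into 2 sets by the level of chromosome 6, a split that cuts across genotypes. The median log2 deviation of 606 chromosome 6 genes was 0.25 in the first WT input, 0.24 and 0.22 in the first and second NF110 KO inputs and 0.24 in the second NF90+NF110 KO input. In the other 5 inputs it lay between -0.21 and -0.15. Lsm3 deviated from its mean over inputs by 0.08 to 0.38 in the 4 inputs with the high chromosome level and by -0.40 to -0.07 in the other 5. The split was not confined to chromosome 6. Lsm1, on chromosome 8, deviated by -0.116 to 0.003 in those 4 inputs and by 0.015 to 0.109 in the other 5. How many genes of other chromosomes follow the split was not counted. With the chromosome 6 level as a term in the fit, Lsm5 was lower in NF110 KO by 0.83 (adjusted p = 0.0239) and in NF90+NF110 KO by 0.52 (adjusted p = 0.0354). It was then the 1 gene of the 9 called in each comparison, and the whole table had 781 and 1111 calls in place of 1 and 26. Lsm3 stood at 0.02 (adjusted p = 0.913) and 0.19 (adjusted p = 0.18) in the same fit. What the chromosome 6 split is was not tested.

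**Figure D3:**
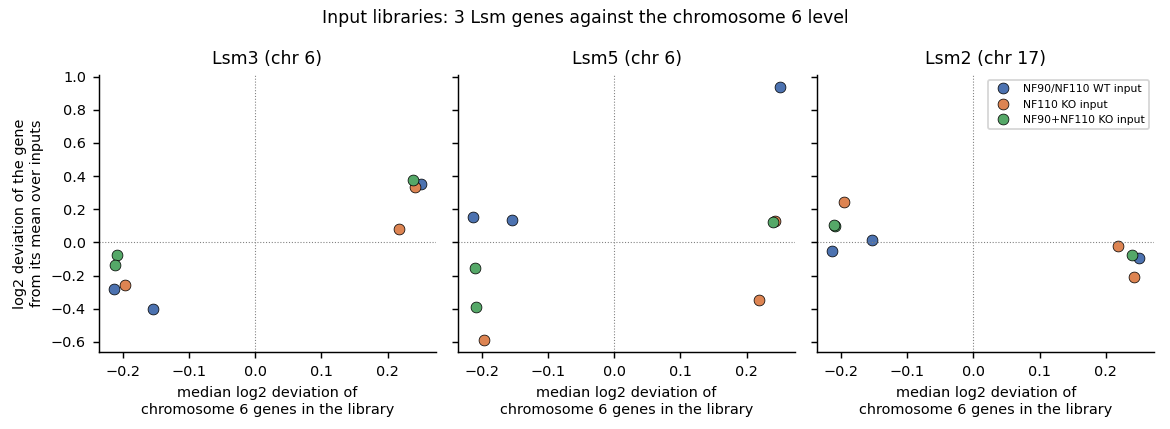
Log2 deviation of Lsm3, Lsm5 and Lsm2 from their mean over the 9 inputs (y axis) against the median log2 deviation of the chromosome 6 genes in each input (x axis). Lsm3 sits above 0 in the 4 inputs with the high chromosome 6 level and below 0 in the other 5. Lsm5 is highest in the WT inputs on each side. Lsm2, on chromosome 17, leans the other way. It lies between -0.208 and -0.024 in those 4 inputs and between -0.053 and 0.243 in the other 5.

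IP over input asks which RNAs come down with the anti-NF90/NF110 antibody. NF90+NF110 KO cells lack the intended targets of the antibody, so their IP over input is its background. In WT cells, Lsm4 RNA was higher in the IP than in the input, Lsm1, Lsm3, Lsm5 and Lsm6 RNA was lower, and Lsm2, Lsm7, Lsm10 and Lsm11 did not pass the test. Lsm1, Lsm3 and Lsm6 were lower in the IP of all 3 genotypes, the background included. In the authors' deposited comparisons, only Lsm1 was called in all 3. Lsm5 had the lowest WT ratios of IP to input, from 0.323 to 0.418.

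In WT, 1 of 9 genes was higher and 4 were lower, where 28.9% and 23.6% of 12693 genes were (52.5% in either direction). In NF110 KO, 1 was higher and 4 were lower, where 21.1% and 17.0% were (38.1%). In NF90+NF110 KO, 1 was higher and 6 were lower, where 23.4% and 21.1% were (44.6%). The median log2 IP over input of the 9 genes was -0.30, -0.16 and -0.34 in that order, beside 0.02, 0.01 and -0.00 over all genes. In the authors' deposited table, 1 gene was higher in WT, Lsm4, and 3 were lower (Lsm1, Lsm5 and Lsm6). In NF110 KO, 0 were higher and 1 was lower, Lsm1. In NF90+NF110 KO, where Lsm7 has no adjusted p, 1 was higher, Lsm11, and 3 were lower (Lsm1, Lsm3 and Lsm6).

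Lsm1 had IP over input ratios of 0.807, 0.792 and 0.714 in the 3 WT experiments, 0.817, 0.816 and 0.721 in NF110 KO and 0.837, 0.715 and 0.718 in NF90+NF110 KO. The genotypes overlapped almost wholly, and all 9 IPs were below their input. The log2 changes were -0.35 (adjusted p = 0.000572), -0.33 (adjusted p = 0.00147) and -0.38 (adjusted p = 0.000432). Lsm6 had ratios of 0.693, 0.731 and 0.740 in WT, 0.846, 0.956 and 0.825 in NF110 KO and 0.806, 0.729 and 0.777 in NF90+NF110 KO. Its log2 changes were -0.42 (adjusted p = 8.77e-05), -0.18 (adjusted p = 0.0371) and -0.34 (adjusted p = 0.000626). All 9 IPs were again below their input, with NF110 KO nearest to it. The call of Lsm6 in NF110 KO was kept in 6 of 12 alternatives.

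Lsm3 had ratios of 0.699, 0.848 and 0.773 in WT, 0.746, 0.926 and 0.898 in NF110 KO and 0.654, 0.665 and 0.705 in NF90+NF110 KO. The log2 changes were -0.37 (adjusted p = 0.000314), -0.23 (adjusted p = 0.0123) and -0.57 (adjusted p = 1.61e-05), so the antibody background was the lowest of the genotypes. Lsm2 ratios in WT ran from 0.908 to 1.014, those in NF110 KO from 0.830 to 1.008 and those in NF90+NF110 KO from 0.780 to 0.896. It passed as lower in NF110 KO (-0.16, adjusted p = 0.0443) and in NF90+NF110 KO (-0.25, adjusted p = 0.00393), and stood at -0.07 in WT (adjusted p = 0.36). For Lsm7 the WT ratios lay between 0.620 and 0.943, the NF110 KO ratios between 0.694 and 1.071 and the NF90+NF110 KO ratios between 0.463 and 0.730. It passed in NF90+NF110 KO alone of the genotypes (-0.67, adjusted p = 0.00212), on 30 to 59 reads per library. Whether that differs from the other genotypes is given with the differences in enrichment.

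Lsm4 had ratios of 1.175, 1.408 and 1.277 in WT, 1.213, 1.171 and 1.030 in NF110 KO and 0.957, 1.051 and 0.965 in NF90+NF110 KO. Every WT experiment lay above every NF90+NF110 KO experiment. The log2 changes were 0.36 in WT (SE 0.057, adjusted p = 0.000199), 0.18 in NF110 KO (SE 0.057, adjusted p = 0.0236) and -0.01 in NF90+NF110 KO (SE 0.057, adjusted p = 0.864). In the last, quantile scaling gave 0.13 (adjusted p = 0.0244).

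Lsm5 had FPKM of 17.7, 7.70 and 9.77 in WT IPs, beside 42.3, 23.8 and 24.2 in their inputs, which are ratios of 0.418, 0.323 and 0.404. The ratios were 1.010, 1.375 and 1.058 in NF110 KO and 0.717, 0.532 and 1.025 in NF90+NF110 KO. WT lay apart from both knockouts, which overlapped each other. The log2 change was -1.32 in WT (SE 0.140, adjusted p = 2.26e-05), 0.18 in NF110 KO (SE 0.140, adjusted p = 0.353) and -0.42 in NF90+NF110 KO (SE 0.140, adjusted p = 0.0301). Reads behind these values were 31 to 93 per WT IP and 85 to 147 per WT input. Both the lower IP and the higher input of WT enter the ratio. In the IPs alone, Lsm5 FPKM reached from 7.70 to 17.7 for WT, from 14.9 to 24.0 for NF110 KO and from 11.7 to 19.8 for NF90+NF110 KO, so the genotypes overlapped.

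Of the U7 subunits, Lsm10 had ratios of 1.101, 1.048 and 1.042 in WT, 1.036, 0.969 and 0.699 in NF110 KO and 0.852, 0.787 and 0.935 in NF90+NF110 KO. Lsm10 passed in no genotype, with log2 values of 0.08, -0.16 and -0.22 (adjusted p = 0.427, 0.148 and 0.0551). Lsm11 ratios lay between 1.012 and 1.276 in WT, between 0.861 and 1.212 in NF110 KO and between 1.265 and 1.387 in NF90+NF110 KO. It was higher in the NF90+NF110 KO IP by 0.31 (adjusted p = 0.0122), in cells without the antibody's targets, and this call was lost without the first or the second NF90+NF110 KO experiment.

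**Figure D4:**
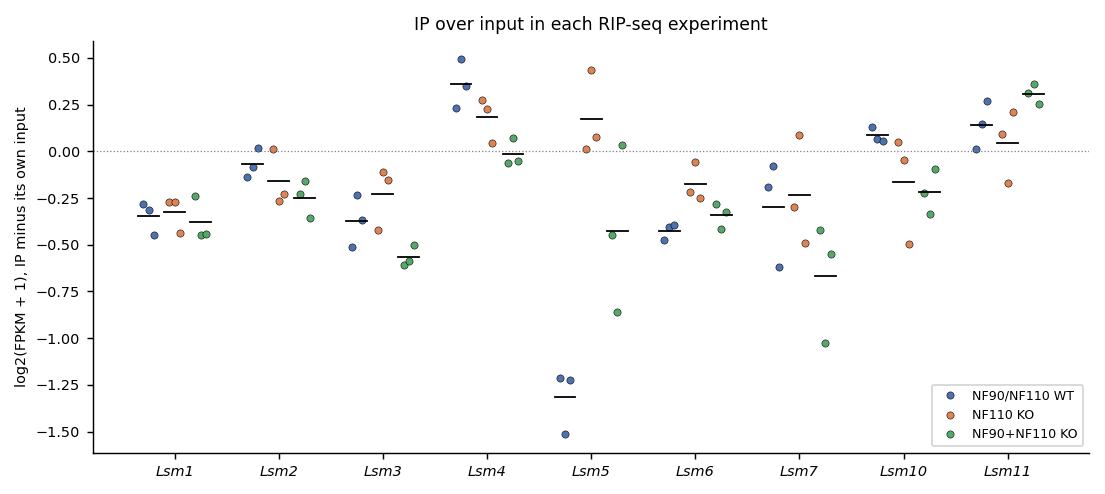
Log2(FPKM + 1) of the IP minus that of its own input (y axis) for each Lsm gene (x axis), with a point per experiment, coloured by genotype, and a bar at the genotype mean. The WT points of Lsm5 lie near -1.32, apart from the other genotypes, and the Lsm4 points step down from 0.36 in WT to -0.01 in NF90+NF110 KO.

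In NF110 KO, leaving out any experiment left 3 of 9 genes called, with Lsm1 in each case: Lsm2 and Lsm10 beside it without the first experiment, Lsm3 and Lsm6 without the second, and Lsm3 and Lsm4 without the third. In NF90+NF110 KO, Lsm5 lost its call without the first or the second experiment. Chromosome 6 stood at the same level in each IP as in its own input to within a few hundredths on the log2 scale, and the median IP over input of chromosome 6 genes was -0.01, 0.01 and -0.01 in WT, NF110 KO and NF90+NF110 KO.

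The related lists in the WT IP are given beside the 28.9% of all genes that were higher and the 23.6% that were lower. Of 9 U6 and U4/U6 genes, 8 were higher and 0 lower, led by Prpf6 (1.23, adjusted p = 3.78e-09) and Prpf3 (0.78, adjusted p = 1.77e-06), which encode proteins of the tri-snRNP and of U4/U6. In NF90+NF110 KO, 5 of them were higher and 1 lower, and Prpf6 stood at 1.01. Of 8 Sm core genes, 3 were higher and 4 lower, with Snrpb at 0.64 and Snrpg at -0.74. Another of the higher calls is Snrpn, a close copy of Snrpb, which had 0 to 3 recovered reads per RIP-seq library beside an FPKM of 43.8 to 87.7, so its value is uncertain. Of 8 decapping and decay genes, 2 were higher and 1 lower, with the decapping enhancer Edc3 at 0.62 and Dcp2 at -0.34. Of 6 histone 3′ end genes, 2 were higher and 0 lower, with Slbp at 0.35. Of 4 further Lsm-domain genes, 1 was higher, Lsm14b (0.28, adjusted p = 0.000257), and 3 were lower, led by Lsm12 (-0.53, adjusted p = 5.09e-06). In the NF90+NF110 KO IP, the antibody background, 23.4% of all genes were higher and 21.1% lower. There, 1 Sm core gene was higher and 4 lower, and 1 decapping and decay gene was higher and 0 lower. Of histone 3′ end genes 2 were higher and 1 lower, and of further Lsm-domain genes 1 and 3. Edc3, Snrpg and Lsm12 were called there too, in the same direction as in WT.

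The differences in enrichment between genotypes were then tested as interaction terms. Relative to the antibody background, Lsm4 was more enriched in WT and Lsm5 less. Lsm3 RNA was lower in the IP than in the input of both knockouts, but less so in NF110 KO (-0.23) than in the background (-0.57). Between WT and NF110 KO, Lsm5 was the 1 gene called, with lower enrichment in WT. Lsm1, Lsm2, Lsm6, Lsm7, Lsm10 and Lsm11 passed in none of the 3 comparisons, which share libraries with each other.

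For WT minus NF90+NF110 KO, the difference was 0.37 for Lsm4 (SE 0.081, limma adjusted p = 0.023), with all 3 WT experiments above all 3 of NF90+NF110 KO. It was -0.89 for Lsm5 (SE 0.197, adjusted p = 0.0308), with all 3 WT experiments below. These 2 of 9 genes, 1 higher and 1 lower, compare with 5.82% of all genes, 4.61% higher and 1.21% lower (585 and 154 genes), a split that was 75 and 60 with quantile scaling. Both calls were lost when any WT experiment, or the first or the third NF90+NF110 KO experiment, was left out, and 2 of 9 remained without the second. With quantile scaling Lsm4 stood at 0.12 (adjusted p = 0.283) and Lsm5 at -0.90 (adjusted p = 0.0551). The differences of the other genes were 0.30 for Lsm10 (95% interval 0.04 to 0.56, adjusted p = 0.153), 0.37 for Lsm7 (-0.05 to 0.79, 0.273), 0.19 for Lsm3 (0.00 to 0.39, 0.21) and 0.18 for Lsm2 (0.00 to 0.36, 0.201). Those of Lsm1, Lsm6 and Lsm11 were 0.03, -0.08 and -0.17.

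For NF110 KO minus NF90+NF110 KO, the difference was 0.34 for Lsm3 (SE 0.089, adjusted p = 0.0348), with no overlap between the experiments. It was the 1 gene of 9 called, beside 9.91% of all genes, 6.00% higher and 3.91% lower (762 and 496 genes, or 464 and 583 with quantile scaling). Lsm5 differed by 0.60 (95% interval 0.16 to 1.04, adjusted p = 0.0773) and, among the alternatives tried, passed only without the third NF90+NF110 KO experiment. Lsm7 differed by 0.43 (0.01 to 0.85, adjusted p = 0.167) and Lsm4 by 0.20 (0.02 to 0.37, adjusted p = 0.133). The call of Lsm3 was lost without the second or the third NF110 KO experiment and without the first or the second NF90+NF110 KO experiment. Lsm8 differed by 0.35 (adjusted p = 0.0302), close to Lsm3.

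For WT minus NF110 KO, the difference was -1.49 for Lsm5 (SE 0.197, adjusted p = 0.0169), with all 3 WT ratios below all 3 of NF110 KO. It was the 1 gene of 9 called, beside 13.3% of all genes, 6.80% of them lower and 6.55% higher. The call was lost without the third WT experiment and without the second or the third NF110 KO experiment. Lsm6 differed by -0.25 (95% interval -0.44 to -0.06, adjusted p = 0.0693), and edgeR called it (-0.27, adjusted p = 0.0497). Over the 9 genes the median difference was 0.18, 0.17 and -0.02 in the 3 comparisons, beside 0.01, -0.00 and 0.03 over all genes.

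**Figure D5:**
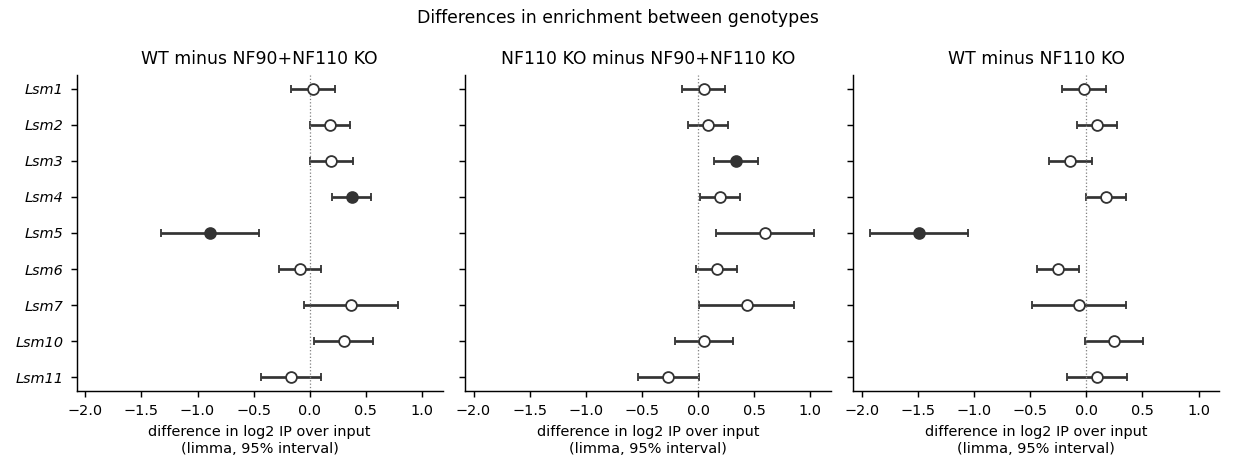
Differences in log2 IP over input between genotypes (x axis; points with 95% intervals, filled where the adjusted p is under 0.05) for each Lsm gene (y axis). Lsm5 lies at -0.89 and -1.49 where WT is compared with NF90+NF110 KO and NF110 KO, and the filled points of Lsm4 and Lsm3 lie at 0.37 and 0.34.

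Across the 18 RIP-seq libraries, which include each input with its own IP and so are not independent, Lsm1 and Lsm6 had a Pearson correlation of 0.814 and Lsm1 and Lsm11 of -0.742, on log2 FPKM. The genes whose pattern was most like that of Lsm1 among 12001 genes were Mrpl30 (0.975), Rps21 (0.957) and Rplp2 (0.951), which encode ribosomal proteins. For Lsm10 they were Nol12 (0.727), Trim68 (0.691) and Naa38 (0.691), and for Lsm11 Akna (0.884), Ccdc9 (0.861) and Ubn1 (0.855). These values describe the libraries and carry no test.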

How the data were processed

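RNA-seq (4 libraries) and RIP-seq (18 libraries) were analysed from 2 deposited tables, for 8 groups. Per the submitters' processing notes, the mm10 build was used with HTSeq 0.6.1, DESeq2, Cuffnorm, Cufflinks 2.2.1 and TopHat2 2.0.10, whose roles they do not give. The deposited FPKM table is scaled to transcript length and library size. Per the file headers, the second table holds normalised counts (signal), and the authors' log2 fold change with its SE, Wald score and p-value for each comparison. Its 8 columns of mean values over libraries were not used. Its normalised values, divided by the smallest of a library, came within 0.1 of whole reads in 100.0% of cases.

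Genes were placed by RefSeq symbol or synonym on GRCm38.p6 (22213 of 22330). Tests used log2(FPKM + 1), so folds of low genes are understated, in limma 3.58.1 (R 4.3.3; trend, robust), for genes with FPKM of at least 1 in 2 NF45 libraries (11481) or in 3 RIP-seq libraries (12693). The fits covered 4 NF45 libraries, 9 inputs, and 18 RIP-seq libraries with a term per experiment, with 2, 6 and 6 residual degrees of freedom. Calls were at a Benjamini-Hochberg adjusted p under 0.05 over all genes, two-sided; intervals are 95%. IP and input are paired by the study's design. After each gene's group mean was subtracted, the deviations of each IP and its own input correlated at 0.548 to 0.835 over 9 pairs. edgeR 4.0.16 and DESeq2 1.42.0 on the recovered reads, pseudocount, filter, scaling, chromosome level, block and left-out libraries were alternatives. The scripts were tested on simulated data. Named genes are all 9 members, then the targeted gene Ilf2 (a further targeted gene is not reported here), then up to 2 called genes per related list and comparison, by size of change, and the 3 genes most correlated with Lsm1, Lsm10 and Lsm11. Members and lists were chosen with earlier results of these data known.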

Additional observations from a re-analysis of the deposited data

Results flagged for a closer look

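A difference between genotypes in IP over input was found by the interaction test for 3 Lsm genes. For Lsm5 it was -1.49 on the log2 scale between WT and NF110 KO, and -0.89 between WT and NF90+NF110 KO. For Lsm4 it was 0.37 between WT and NF90+NF110 KO. For Lsm3 it was 0.34 between NF110 KO and NF90+NF110 KO. Each of the 4 values rests on 3 experiments per genotype, and each call was lost when some single experiments were left out. Lsm5 had the fewest reads of the 3 genes, down to 31 in a WT IP.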

How the results depend on the processing

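Of 1256 alternative values of single Lsm genes, 1106 kept their direction and side of the threshold, 57 changed sign without passing in either setting, 77 lost the call, 14 gained it and 2 changed sign with a call in at least 1 setting: Lsm6 in NF45 KO with chromosomes centred (0.12) and Lsm4 in the NF90+NF110 KO IP with quantile scaling (0.13). In NF45 KO, 6 Lsm genes were called and 1 with chromosomes centred; leaving out a library gave 0 to 6. With the replicate block, which pairs the NF45 libraries by number only, 6 were called. Deviations from the group mean correlated at 0.245 between libraries of the same number, and 2 libraries per group give the same value for both numbers. In inputs, 0 were called, 1 in NF110 KO and 1 in NF90+NF110 KO with a chromosome 6 term, and 0 with the replicate block or any library left out. In the NF110 KO IP, 5 became 3 with DESeq2, 3 with only its own libraries and 1 with no replicate block, and 3 to 3 without an experiment. In the NF90+NF110 KO IP, 7 became 4 with no replicate block. For WT minus NF90+NF110 KO, 2 became 0 with no filter, with quantile scaling or with no replicate block, and 0 to 2 without an experiment. For NF110 KO minus NF90+NF110 KO, 1 became 0 under the same 3 settings, and 0 to 2 without an experiment. For WT minus NF110 KO, 1 became 0 with no filter or no replicate block, 2 with chromosomes centred or with edgeR, and 0 to 1 without an experiment. DESeq2 gave no adjusted p to Lsm5, Lsm7 and Lsm10 in the 3 enrichment differences, to Lsm11 in the 2 with NF90+NF110 KO, or to Lsm5 and Lsm7 in the NF110 KO input comparison. The causes were not tested. With libraries kept, calls over all genes ranged from 2847 to 3728 in NF45 KO (0 to 6184 with a library left out) and from 0 to 781, 1 to 1111 and 0 to 83 in the inputs. They ranged from 3491 to 6691, 1865 to 4911 and 2433 to 5854 in the IPs, and from 0 to 1188, 1 to 1940 and 0 to 2460 for enrichment differences. Lsm7 had 20 to 59 reads per RIP-seq library. By the limma SE, Lsm5 was the Lsm gene measured least precisely in the RIP-seq fits. Its SE was 0.2487 between inputs, 0.1396 for IP over input and 0.1974 for enrichment differences. The SE of Lsm7 was 0.1948, 0.1355 and 0.1917 in that order.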

Other observations

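Other genes of RNA rings and of U6 also differed in enrichment between genotypes. Ssb, the La protein that binds new U6 RNA, was more enriched in NF110 KO than in NF90+NF110 KO by 0.79 on the log2 scale (SE 0.132, limma adjusted p = 0.0138) and stood at -0.60 for WT minus NF110 KO (adjusted p = 0.0225). The 9 U6 and U4/U6 genes, a list that takes in the tri-snRNP genes Prpf6 and Prpf8, did not move together. In the first comparison 1 was higher, Ssb, and 1 lower, Prpf8. For WT minus NF110 KO, 3 were higher, Prpf6 among them, and 1 lower, Ssb, where 6.55% and 6.80% of all genes were. Of 8 Sm core genes, 4 were more enriched in NF110 KO than in NF90+NF110 KO and 0 less, where 6.00% and 3.91% of all genes were, among them Snrpe (0.59, adjusted p = 0.0357) and Snrpd1 (0.52, adjusted p = 0.0407). With no replicate block, 1 gene of the whole table was called in that comparison, and with quantile scaling 464 were higher and 583 lower. Snrpe also differed between WT and NF110 KO by -0.72 (adjusted p = 0.022). Of 4 further Lsm-domain genes, 1 was called between WT and NF110 KO, Lsm12 at -0.33 (adjusted p = 0.0225), where 13.3% of all genes were called. Of 8 decapping and decay genes, 1 was called in the 3 comparisons together, Edc4 between WT and NF110 KO, which is near that share of 13.3%.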
